A study of Mus musculus with 12 samples.

Results

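The comparison described here set the terminal ileum of Rag1-/- mice against that of wild type C57BL/6 mice, across all genes counted by RNA sequencing. Its members are the 3 libraries labelled Rag1-/- and the 3 labelled C57BL/6, taken by their column names, so 6 of the 12 libraries of the series. Each library came from a separate mouse. The Rag1-/- mice carry a germline knockout of Rag1, and the wild type mice carry no listed allele. Both groups came from Taconic under a contract of the housing institute and were kept free of specific pathogens, with no treatment listed. The remaining libraries came from Tcra-/- mice and are not compared here. They entered the fit to share its estimate of the spread, and they also took part in the gene filter and the scaling. The labels state no age, sex or cage for these 6 mice, so genotype, colony and cage cannot be told apart. Values per mouse are given in the order RAG1x3163, RAG1x3164 and RAG1x3168 for Rag1-/- and WTB6x3159, WTB6x3160 and WTB6x3167 for wild type.

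Rag1 encodes the enzyme subunit that, with Rag2, cuts and joins the gene segments of antigen receptors, and a mouse without it forms no mature T or B cells. The ileal epithelium that remains is a single sheet of absorptive enterocytes with scattered goblet, Paneth, tuft and enteroendocrine cells. It takes up sugars, amino acids, vitamins, bile acids and fat, and it defends itself with mucus, glycans and antibacterial proteins, in part on cues from lymphocytes and the microbiota.

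Total counts ran from 42717064 to 50581616 in Rag1-/- libraries and from 42067145 to 42312100 in wild type libraries. Levels are given as CPM, counts scaled to the size of the library. Mice of the same group were more alike than mice of different groups: across genes, which are no independent replicates, Pearson's r of log2 CPM ran from 0.9901 to 0.9918 for the 6 pairs that share a genotype and from 0.9612 to 0.9683 for the other 9 pairs. Rag1 itself had 236 reads in the Rag1-/- mice and 0 in wild type, so it was at least 80.5-fold higher when the wild type group is set at a floor of 3 counts. Which part of the gene was deleted is not stated, so these reads do not check the label. The lymphocyte lists do follow it: 27 of 28 T cell genes and 27 of 28 B cell genes were called lower. Summed T cell markers stood at 42.7 to 48.5 CPM against 167 to 229 CPM, and B cell markers at 69.2 to 74.1 against 382 to 459 CPM. In bulk tissue, fewer cells of a type and less RNA per cell cannot be told apart. The ileal label was checked on its bile acid genes: the bile acid carrier Fabp6 had 2688, 3238 and 3463 CPM in Rag1-/- and 3571, 4109 and 3079 CPM in wild type mice, and the groups overlapped. Marker sums of smooth muscle (2980 to 3729 against 3321 to 3660 CPM) and of the pan-epithelial list (25070 to 27160 against 26020 to 26700 CPM) overlapped between the groups as well. Myeloid markers did not, at 378 to 436 against 482 to 591 CPM, nor did adipocyte markers, at 35.7 to 64.1 against 108 to 236 CPM. Most single genes of both lists were not called: 21 of 24 myeloid genes and 8 of 10 adipocyte genes. The shares called were 12.5% and 20%, against 20.9% of all genes tested, so most genes overall were not called either. The adipocyte sum includes Pck1, and without it stood at 30.8 to 49.6 against 61.1 to 71.3 CPM. Adipoq, Plin1, Fabp4 and Cfd alone summed to 9.95 to 14.7 against 15.8 to 20.9 CPM.

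Among 15866 genes tested of 23284 in the table, 3314 passed an adjusted p of 0.01 in edgeR's quasi-likelihood test, which is 20.9%. Of these, 1494 (9.42%) were higher in Rag1-/- mice and 1820 (11.5%) lower. The 3 mice of a group did not overlap with those of the other in 3310 of the calls and in 45.7% of all genes tested. With listed lymphocyte, antigen receptor, MHC and other immune genes set aside, 15610 genes remained, of which 3178 (20.4%) were called, 1477 higher and 1701 lower. These immune lists are not complete, and genes that lymphocytes express, such as Ikzf3 and Il21r, remained among the 15610. Within the immune lists 136 of 256 genes tested were called, a share of 53.1%. The calls outside those lists included 1033 changes of over 2-fold, 318 higher and 715 lower, and 1379 of under 1.5-fold. Genes of transport, metabolism and epithelial function were called more often than the background share. The lists were written with earlier results of these data known, so part of that excess may come from the choice of members. Of 420 transport genes, 50 were higher and 83 lower (31.7% called). Of 969 metabolic genes, 159 were higher and 166 lower (33.5%), and of 312 epithelial genes 51 were higher and 53 lower (33.3%). Transcription factors lay under the background when taken as 1 class, with 33 higher and 66 lower of 708 (14.0%). That class includes the large Zfp series of zinc finger genes, with 3 higher and 23 lower of 345 (7.54%). Its separate lists ran from 17.2% called (secretory lineage factors) to 37.5% (enterocyte identity factors). The split of directions depends on the scaling: 45.1% of calls were higher with TMM and 18.1% with library size alone, which moved the median log2 fold change of all genes from -0.02 to -0.19. TMM factors did not overlap between the groups, at 0.926 to 0.956 in Rag1-/- and 1.05 to 1.06 in wild type libraries.

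**Figure D1:**
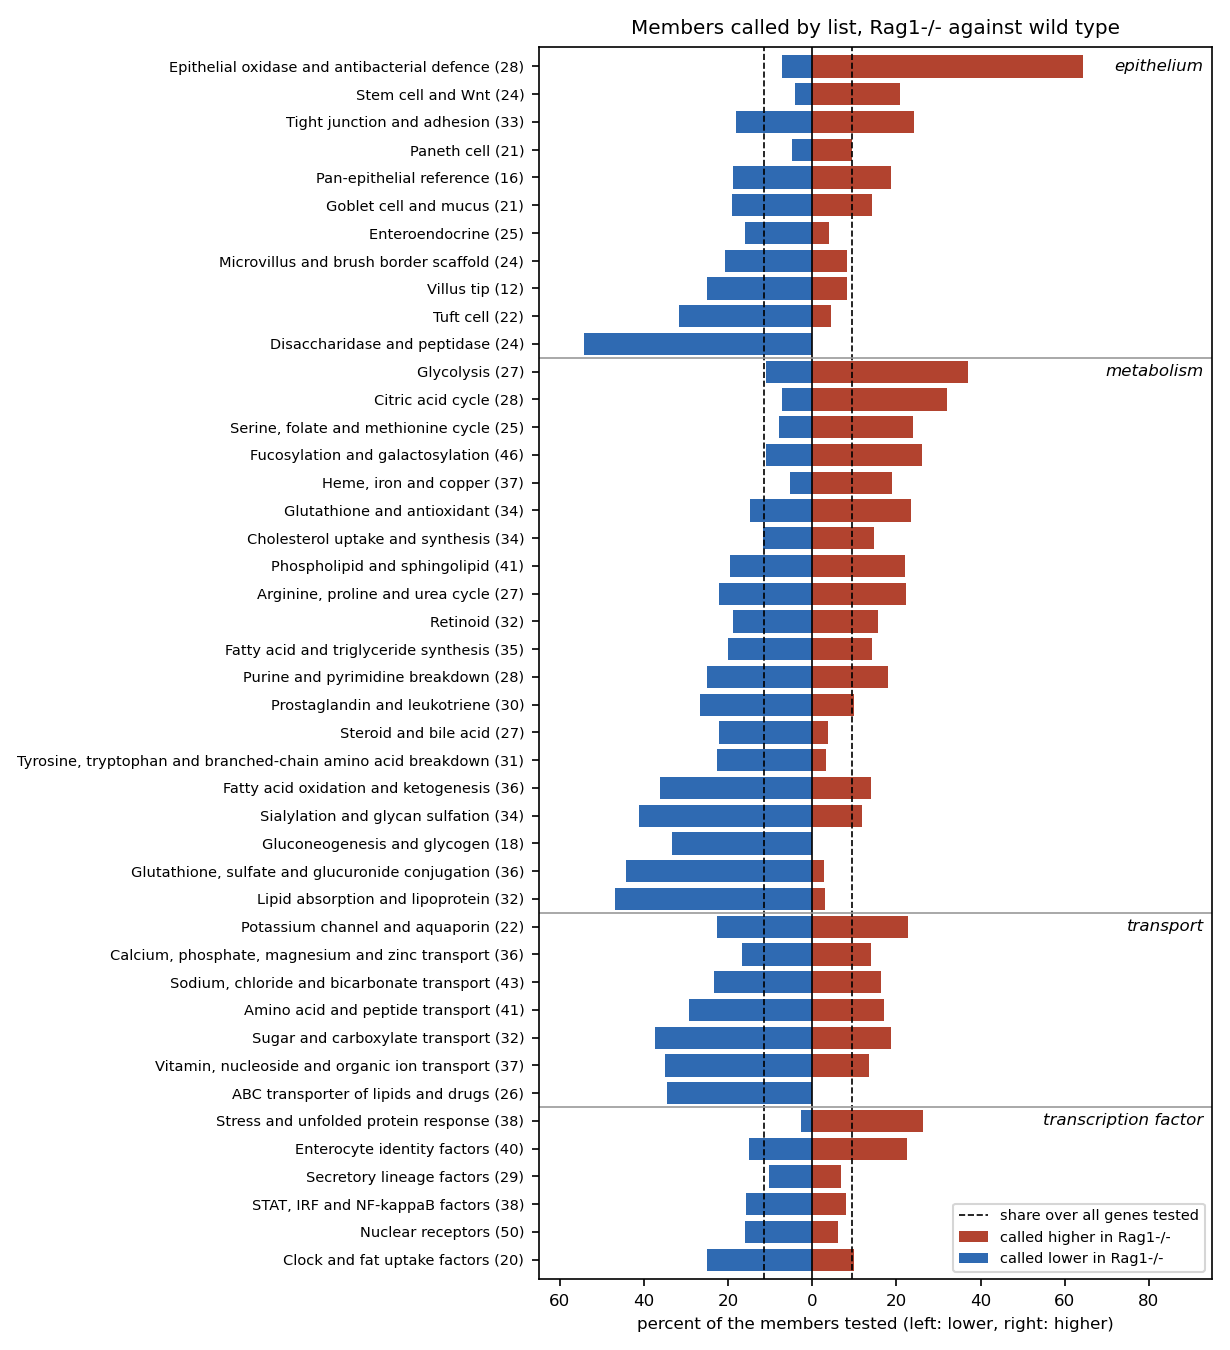
Percent of the tested members of each list called higher (right, red) or lower (left, blue) in Rag1-/- than in wild type ileum; the number of members tested is in brackets and the dashed lines mark the shares over all genes tested, 9.42% higher and 11.5% lower. Disaccharidases and peptidases, lipid absorption and conjugation extend furthest to the left, and epithelial oxidases and antibacterial defence furthest to the right.

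The largest rises were taken among called genes outside the immune lists whose log2 CPM averaged above 1 and whose groups did not overlap. They held secreted proteins, glycan enzymes, membrane proteins and an aminotransferase. Lrg1, a secreted leucine-rich glycoprotein, had 175, 172 and 113 CPM in Rag1-/- mice and 0.585, 0.974 and 1.39 CPM in wild type mice. Fut2, which adds fucose to the ends of surface glycans, had 467, 605 and 373 CPM against 4.61, 6.12 and 9.14 CPM. B3galt5, which adds galactose to the chain that Fut2 then fucosylates, had 844, 1147 and 823 CPM against 8.59, 8.79 and 12.3 CPM. In these 3 genes every Rag1-/- mouse lay far above every wild type mouse, where the rule required only no overlap. Retnlb, an antibacterial protein of goblet cells, went from 0.742, 1.07 and 1.57 CPM in wild type to 78.2, 61.3 and 70.6 CPM. Tat, the aminotransferase that starts tyrosine breakdown, had 205, 364 and 145 CPM against 10.3, 15 and 16.3 CPM, a rise of 4.10 on the log2 scale (SE 0.42, adjusted p = 0.000100). RAG1x3168 was the lowest of the 3 Rag1-/- mice for Lrg1, Fut2, B3galt5 and Tat. Cfi, a protease that restrains complement, rose by 3.48 (SE 0.34). Mal, a membrane protein of apical sorting, had 42.9, 37.9 and 40.8 CPM against 4.39, 4.12 and 3.76 CPM, with little spread within either group. The remaining genes of the 14 largest rises were Gml, Hemt1, the protease inhibitor Serpina10, Chst4, the cadherin Celsr3, the Gla protein Prrg4 and the predicted gene 1600029D21Rik, with log2 fold changes from 3.33 to 4.98. Reads of 1600029D21Rik could belong to another gene, with which it shares exonic bases. The call of 1600029D21Rik ended without RAG1x3164 (adjusted p = 0.0106), WTB6x3159 (0.0138) or WTB6x3160 (0.0117) and in a fit of the 6 libraries alone (0.0278).

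The largest falls were taken by the same rule, which leaves out deeper falls at lower levels, and Lct stood at their head. Lct, the lactase of the brush border, had 9.85, 19.4 and 11.9 CPM in Rag1-/- mice and 456, 413 and 299.6 CPM in wild type mice. Slc2a2, the basolateral glucose transporter, had 1.13, 1.18 and 1.52 CPM against 33, 26 and 24.8 CPM. Slc5a4a, a member of the sodium and glucose cotransporter family, had 0.710, 0.521 and 0.896 CPM against 10.8, 15.3 and 14.2 CPM. Every Rag1-/- mouse lay far below every wild type mouse in these 3 genes, where the rule required only no overlap. Cyp3a11, a drug-metabolizing cytochrome P450, had 6.91, 21.7 and 13.3 CPM against 269, 253 and 142 CPM (log2 fold change -3.99, SE 0.64, adjusted p = 0.00172). Slc5a12, a sodium-coupled carrier of lactate and other monocarboxylates, had 4.51, 12.9 and 11.7 CPM against 112, 163 and 154 CPM. Leap2, a secreted peptide of enterocytes and liver that blocks the ghrelin receptor, had 0.759, 1.73 and 1.62 CPM against 16.8, 15 and 11.4 CPM (log2 fold change -3.39, SE 0.36, adjusted p = 2.64e-05). That the groups did not overlap in these 3 genes was fixed by the rule. Angptl4, an inhibitor of lipoprotein lipase that adipocytes and enterocytes secrete, had 3.38, 4.31 and 5.87 CPM against 47.3, 70.7 and 24.7 CPM and fell by 3.39 (SE 0.44). The adipocyte markers given above moved the same way, and their part in this fall was not tested. Acot12, a thioesterase of acetyl-CoA, fell by 4.26 (SE 0.49), although it shares exonic bases with another gene and its reads could belong to either. Abca12, a lipid transporter known from skin, fell by 3.40 (SE 0.33). The other 5 of the 15, Ikzf3, Il21r, Lax1, Cxcr4 and Ptprcap, are expressed by lymphocytes although they were on no immune list. They fell beside the lymphocyte marker sums given above, whose part in those falls was not tested. Pck1, of gluconeogenesis, completes the 15 and is described with that pathway.

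**Figure D2:**
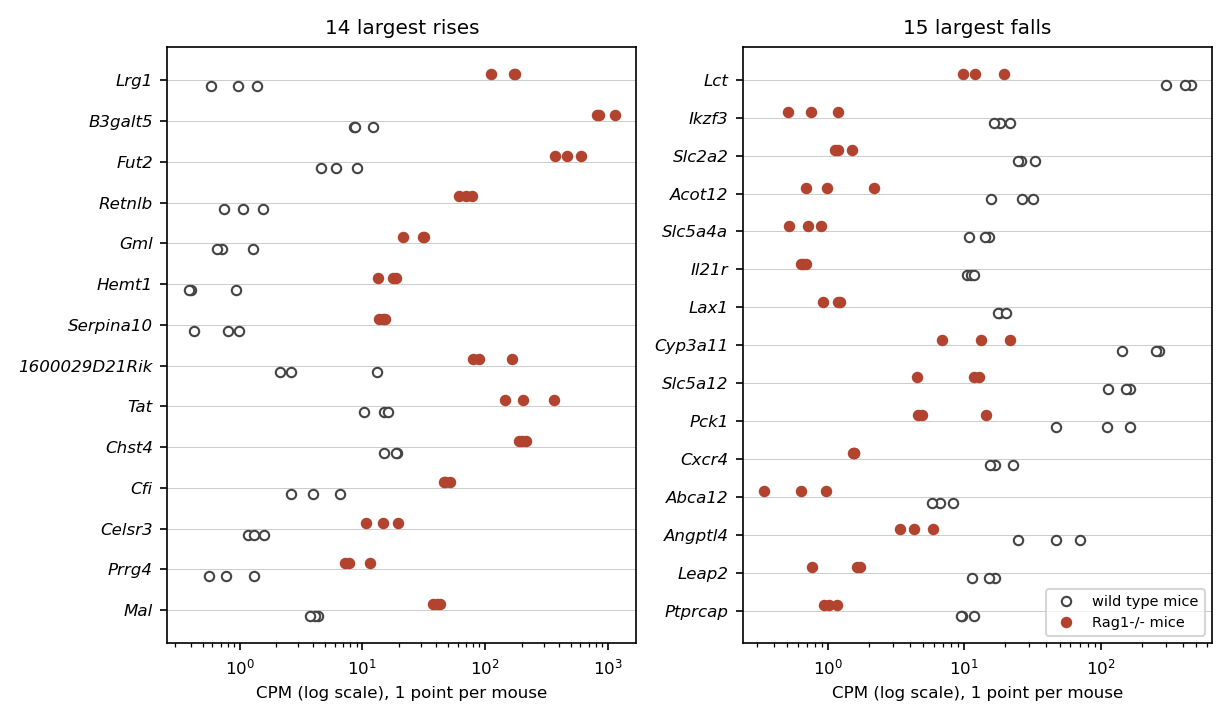
CPM of each mouse, on a log axis, for the 14 largest rises (left) and the 15 largest falls (right) outside the immune lists; filled red points are Rag1-/- mice and open points wild type mice. The points of the 2 groups are apart in every gene drawn, by the rule that chose them; Lrg1 lies at 1.39 CPM or less in wild type and at 113 CPM or more in Rag1-/- mice, and Lct at 299.6 CPM or more and at 19.4 CPM or less.

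Promoters of the named genes were searched for the site of STAT factors, which carry cytokine signals to the nucleus. RefSeq windows of 300 bases (250 before and 50 after the start site, GRCm38.p6) matched 11065 of the 15866 genes tested by symbol. The site TTCNNNGAA reads the same on both strands and includes the stricter TTCCNGGAA; both strands were searched for every motif. It was found in 8.59% of these genes, in 10.4% of the 1080 genes called higher outside the immune lists and in 6.04% of the 1209 called lower. The stricter site was in 1.52%, 2.31% and 1.08%. For the cyclic AMP element TGACGTCA the shares were 3.33%, 3.33% and 1.65%, for the interferon element GAAANNGAA 8.78%, 9.72% and 8.02%, and for the E-box CACGTG 11%, 11.5% and 9.43%. These are descriptions with no test, and a match does not show that a factor binds. Of the largest rises and falls described above, B3galt5 alone had the wider site in a window. The others had no such site or no matched window. Shown are the 250 bases before the start site of the 4 named genes with the largest changes among those with the wider site upstream of the start, 5′ to 3′, with the site in capitals. They are B3galt5 (chr16:96235551-96235800, plus strand, 1 of its 3 windows, 10 bases before the start), Socs3, a feedback inhibitor of STAT signalling (chr11:117969367-117969616, minus strand, 154 bases before), Rdh16, a retinol dehydrogenase (chr10:127800903-127801152, plus strand, 230 bases before), and Abcc5, an exporter of organic anions (chr16:20426395-20426644, minus strand, 60 bases before).
B3galt5: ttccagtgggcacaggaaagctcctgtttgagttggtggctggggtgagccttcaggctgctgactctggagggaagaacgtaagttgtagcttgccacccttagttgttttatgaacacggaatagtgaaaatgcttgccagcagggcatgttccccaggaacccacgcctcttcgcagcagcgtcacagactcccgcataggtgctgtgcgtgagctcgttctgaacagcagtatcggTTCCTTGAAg
Socs3: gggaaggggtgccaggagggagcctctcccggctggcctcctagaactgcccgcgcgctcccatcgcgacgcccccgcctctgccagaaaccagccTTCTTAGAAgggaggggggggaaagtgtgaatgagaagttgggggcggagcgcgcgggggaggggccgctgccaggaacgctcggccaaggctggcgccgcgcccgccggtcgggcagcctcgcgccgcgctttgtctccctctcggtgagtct
Rdh16: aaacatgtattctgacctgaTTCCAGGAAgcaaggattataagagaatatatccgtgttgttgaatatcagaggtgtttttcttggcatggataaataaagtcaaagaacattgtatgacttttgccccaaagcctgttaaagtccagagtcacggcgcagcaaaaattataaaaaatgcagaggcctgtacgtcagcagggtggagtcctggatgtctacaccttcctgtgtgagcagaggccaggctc
Abcc5: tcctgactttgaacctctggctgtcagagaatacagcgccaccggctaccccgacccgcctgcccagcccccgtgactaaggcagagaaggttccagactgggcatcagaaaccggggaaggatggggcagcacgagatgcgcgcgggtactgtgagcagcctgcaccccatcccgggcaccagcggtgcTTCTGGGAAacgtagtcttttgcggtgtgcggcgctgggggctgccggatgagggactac
The first 3 genes rose, B3galt5 by 6.57, Socs3 by 2.96 (SE 0.31) and Rdh16 by 2.93 (SE 0.13) on the log2 scale, while Abcc5 fell by 1.61 (SE 0.13). Socs3 had 333, 465 and 230.2 CPM in Rag1-/- mice and 35.8, 38.4 and 57.6 CPM in wild type mice, with no overlap. Only the site of Rdh16 matches the stricter form.

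Glycan genes of different sugars leaned in different directions. Of 46 genes of fucosylation and galactosylation 12 rose and 5 fell (median 0.08, against -0.02 over all genes), or 10 and 8 with library size alone. Of 34 genes of sialylation and sulfation 4 rose and 14 fell (median -0.47), and of 16 sialyltransferases 7 fell and 0 rose. Besides B3galt5 and Fut2, the risers included B3gnt7, which extends lactosamine chains, with 312, 391 and 274 CPM against 31.1, 44.7 and 45.1 CPM. No wild type mouse came near the lowest Rag1-/- mouse. B4galt1, a galactosyltransferase of the Golgi, rose by 1.34 (SE 0.11), Fut8, which fucosylates the core of N-glycans, by 0.69 (SE 0.08), and Gmds, which makes the fucose donor, by 1.31 (SE 0.13, adjusted p = 2.46e-06). Chst4, a sulfotransferase of N-acetylglucosamine, had 188, 217 and 201 CPM against 15, 19.2 and 19 CPM. It rose with Chst13, a further sulfotransferase (3.67, SE 0.65, chosen after its value was seen), while Chst3, Chst10 and Chst11 fell. Ggta1, which makes the alpha-galactose epitope, fell by 1.11 (SE 0.13). St3gal6 fell by 0.96 (SE 0.13) and St3gal1, both of which add sialic acid to galactose, by 1.51 (SE 0.11). The deepest falls of that list were St6gal1 (-3.17), 2.45, 3.15 and 3.01 CPM against 21.3, 24.9 and 31.3 CPM, and Chst3 (-5.24), and lymphocytes express both. They fell beside the lymphocyte markers, whose part in these falls was not tested.

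Defence genes of the epithelium rose beyond the known antibacterial lectins. On the list of oxidases and antibacterial proteins 18 of 28 rose and 2 fell (median 1.67), and without any 1 mouse 13 to 16 rose. Gpx2, the glutathione peroxidase of the gut epithelium, had 1118, 1238 and 1165 CPM in Rag1-/- mice and 301, 311 and 358 CPM in wild type (log2 fold change 1.86, SE 0.15, adjusted p = 1.09e-06). Il18, an interleukin that epithelial cells store as a precursor, had 106, 104 and 121 CPM against 28.7, 19.8 and 30.6 CPM. Tgm2, a protein-crosslinking transglutaminase, rose by 1.37 (SE 0.11). Each of these 3 rises held in all 3 mice. All 4 small proline-rich genes tested rose, with Sprr2a1 and Sprr2a2 at 1.78 each, but these paralogs have identical counts and are 1 measurement. Dmbt1, a scavenger receptor protein of mucus chosen after its value was seen, had 7805, 7622 and 7721 CPM against 809.95, 823 and 1699 CPM. The exceptions were the immunoglobulin transporter Pigr (-0.46, SE 0.10), whose call ended without RAG1x3163 (adjusted p = 0.0125), and Reg4 (-2.33, SE 0.42), a lectin of secretory cells, with 6.66, 13.5 and 15.4 CPM against 76.1, 58.5 and 44.4 CPM. The call of Reg4 ended without RAG1x3164 (adjusted p = 0.0125), WTB6x3159 (0.0115) or WTB6x3160 (0.0102) and in a fit of the 6 libraries alone (0.0105). The 13 alpha-defensins tested gave 0 calls in either direction, yet each had a log2 fold change above 0 (0.24 to 1.51, median 0.63). The groups did not overlap in 11 of the 13, against 45.7% of all genes tested. Reads of such paralogs can be assigned to more than 1 member, so these values may not be independent.

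Mucus and lineage genes changed less than defence genes. Of 21 goblet cell genes 3 rose and 4 fell (33.3% called, against 20.9% of all genes). Muc4, a membrane mucin that shares exonic bases with another gene, rose by 2.17 (SE 0.13) and Muc13, a membrane mucin, by 0.65 (SE 0.10). Zg16, a lectin of goblet cell mucus, had 2139.9, 2378 and 2368 CPM against 4182, 4367 and 3463 CPM and fell by 0.80 (SE 0.10). Of 24 stem cell and Wnt genes 5 rose and 1 fell (25% called, against 20.9% of all genes). With library size alone 3 rose, 2 fell and the median moved to -0.10, and without RAG1x3163 3 rose. Ccnd1, a cyclin of the G1 phase, rose by 1.12 (SE 0.12), Prom1 by 0.94 and the receptor Ephb3 by 0.78, while Lgr5, the marker of crypt base stem cells, did not pass (log2 fold change -0.05, SE 0.16, adjusted p = 0.857). Of 25 enteroendocrine genes 1 rose and 4 fell (20% called, near the 20.9% of all genes). The fallers numbered 2 without RAG1x3163 and 7 with library size alone. The riser was Tac1, the precursor of substance P, which enteric neurons express as well, with 58.8, 68.9 and 62.9 CPM against 10.4, 11.6 and 13.6 CPM. Ret, a receptor of enteric neurons, also rose (1.83, SE 0.21), while 14 other neuron and glia genes gave no call. The summed neuron and glia list was 79.5 to 100.6 CPM in Rag1-/- and 59.8 to 68.1 in wild type mice, and its part in the rise of Tac1 was not tested. Lyz1, the lysozyme of Paneth cells, was not called (0.15, adjusted p = 0.847).

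On the list of disaccharidases and peptidases, whose members are not all at the brush border, every call was a fall. Of the 13 falls 8 were by less than 2-fold. Of 24 disaccharidases and peptidases 13 fell and 0 rose (median -0.55), and 8 (without RAG1x3163) to 12 fell without any 1 mouse. After Lct, the falls included Xpnpep2, an aminopeptidase for proline bonds (-1.01, SE 0.13), Aspa, an aspartoacylase (-0.80, SE 0.10), Dpep1, a dipeptidase (-0.71), and Pepd, a dipeptidase of the cytosol (-0.68). Alpi, the intestinal alkaline phosphatase, had 288, 314 and 294 CPM against 573, 580.1 and 452 CPM and fell by 0.84 (SE 0.13). Alpi was chosen after its value was seen, and its groups did not overlap. Sis, the sucrase-isomaltase, had 1356, 1632 and 1539 CPM against 2611, 2576 and 3315 CPM and did not pass (log2 fold change -0.91, SE 0.26, adjusted p = 0.0217), though it did in the 6 libraries alone (adjusted p = 0.000102) and in DESeq2 (0.00387). The scaffold of the microvillus had 5 of 24 genes lower and 2 higher. The fallers numbered 14 with library size alone, 11 with the pan-epithelial scaling, and 3 (without WTB6x3160) to 7 (without RAG1x3168) without 1 mouse. Pdzk1, which anchors apical transporters, had 131, 183 and 170.5 CPM against 538, 537 and 374 CPM (log2 fold change -1.58, SE 0.22, adjusted p = 0.000401).

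Junction genes did not move one way. Of 33 tested 8 rose and 6 fell (42.4% called, against 20.9% of all genes). With library size alone 3 rose and 9 fell. Without RAG1x3164, RAG1x3168 or WTB6x3160 only 4 rose. Cldn4, a sealing claudin, fell by 1.08 (SE 0.19) and Cldn8 by 1.58 (SE 0.24). Lama3, a laminin chain of the basement membrane, had 49.9, 63.7 and 56.2 CPM against 251, 196 and 205 CPM and fell by 1.94 (SE 0.23). Ceacam1, an adhesion molecule of the apical surface, had 1615, 1852 and 2098 CPM against 859, 844 and 1062 CPM and rose by 1.01 (SE 0.12). In both genes the mice of the groups did not overlap.

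Transport genes changed in both directions, with falls more frequent. Of 263 solute carriers 35 rose and 55 fell, or 13.3% and 20.9%. With library size alone the counts were 24 and 83. Among 32 carriers of sugars and carboxylates 6 rose and 12 fell. Beside Slc2a2, Slc5a4a and Slc5a12, the falls included the sodium-coupled sugar carriers Slc5a4b (-2.69) and Slc5a11 (-2.62) and the fructose transporter Slc2a5 (-1.49, SE 0.24), all 3 chosen after their values were seen. Slc5a1, the main apical sodium and glucose cotransporter, had 1009, 1142 and 1336 CPM against 1518, 1632 and 1928 CPM and fell by only 0.54 (SE 0.13, adjusted p = 0.00408). That call ended without RAG1x3163 (adjusted p = 0.0229), RAG1x3164 (0.0180), WTB6x3160 (0.0106) or WTB6x3167 (0.0213). Risers were the mannose and glucose carrier Slc5a9, with 134, 151 and 139.7 CPM against 41.7, 46.3 and 43.6 CPM, the facilitative glucose transporter Slc2a1 (0.82, SE 0.10) and the lactate exporter Slc16a3 (1.13, SE 0.15, chosen after its value was seen). Within the Slc2 and Slc5 families, members therefore moved apart: Slc2a1 rose where Slc2a2 fell, and Slc5a9 rose where Slc5a4a and Slc5a12 fell.

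**Figure D3:**
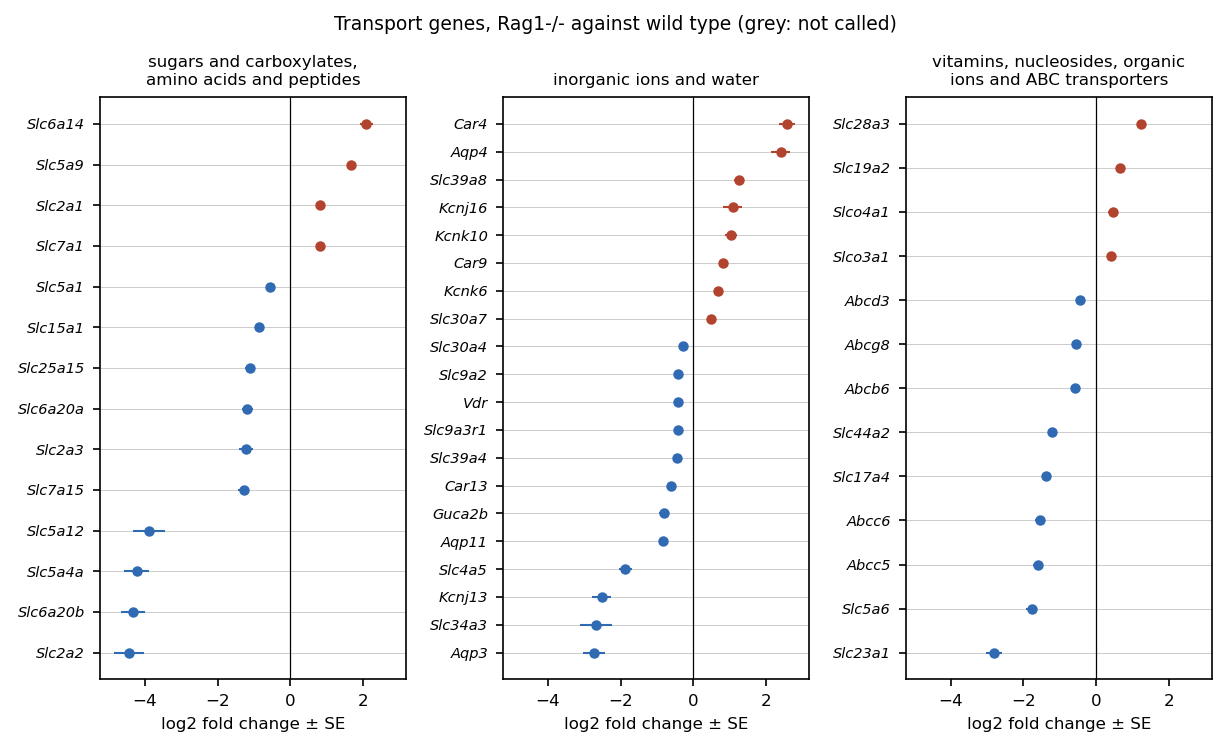
Log2 fold change (Rag1-/- over wild type) with its standard error for the named transport genes that are on no immune list, in 3 panels by substrate; red points were called higher, blue points lower and grey points not called. Slc2a2, Slc6a20b, Slc5a4a and Slc5a12 lie near -4, and Car4, Aqp4 and Slc6a14 lie furthest to the right.

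Amino acid and peptide carriers showed the same mixture, with 7 of 41 higher and 12 lower (17.1% and 29.3%, against 9.42% and 11.5% of all genes). Slc6a14, a sodium and chloride coupled carrier of neutral and cationic amino acids, had 258, 234 and 289.95 CPM in Rag1-/- mice and 53.1, 61.7 and 67.7 CPM in wild type (log2 fold change 2.10, SE 0.17, adjusted p = 3.10e-06). Slc7a1, a carrier of cationic amino acids, rose by 0.82 (SE 0.12), and Slc36a1, a proton-coupled carrier of small amino acids chosen after its value was seen, by 1.31 (SE 0.19). Slc15a1, the apical carrier of di- and tripeptides, had 257, 295 and 316 CPM against 514, 558 and 495 CPM. It fell by 0.85 (SE 0.12), and each Rag1-/- mouse was below each wild type mouse. The proline carrier Slc6a20a fell by 1.18 (SE 0.14) and its paralog Slc6a20b fell by 4.32 (SE 0.33). Reads of such paralogs can be assigned to either gene. The mitochondrial ornithine carrier Slc25a15 fell by 1.12 (SE 0.13) and the orphan mitochondrial carrier Slc25a45 by 2.58. Of 39 mitochondrial carriers 7 fell and 1 rose, or 12 and 0 with library size alone. The share called, 20.5%, was near the 20.9% of all genes.

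Ion and water transport held some of the clearest single changes. Car4, a membrane carbonic anhydrase, had 566, 586 and 656 CPM in Rag1-/- mice and 73.6, 99.9 and 128 CPM in wild type mice (log2 fold change 2.58, SE 0.23, adjusted p = 1.34e-05). Slc9a3, the apical sodium and proton exchanger, had 111, 188 and 91.6 CPM against 32.6, 38.4 and 29.2 CPM and was chosen after its value was seen (log2 fold change 1.96, SE 0.24, adjusted p = 0.000195). Both rose in every mouse, while the carbonic anhydrase Car13 fell by 0.61 (SE 0.09) and the bicarbonate carrier Slc4a5 by 1.87 (SE 0.18). In all, 7 of 43 sodium, chloride and bicarbonate genes rose and 10 fell, with 6 lower without RAG1x3163 or RAG1x3164. Guca2b, the peptide uroguanylin that drives chloride secretion, had 171, 205 and 209.7 CPM against 347, 394 and 286 CPM. Aquaporins moved apart. Aqp4 had 64.7, 75.1 and 69.1 CPM against 13.3, 9.04 and 16.9 CPM (log2 fold change 2.41, SE 0.26, adjusted p = 7.19e-05), and Aqp3, which also carries glycerol, had 0.784, 0.474 and 0.832 CPM against 3.91, 6.57 and 3.53 CPM (log2 fold change -2.74, SE 0.30, adjusted p = 5.28e-06). The potassium channel Kcnj13 fell by 2.52 (SE 0.26), while the potassium channel Kcnk10 rose by 1.04 (SE 0.18). Of 21 zinc carriers 7 rose and 3 fell (47.6% called, against 20.9% of all genes). Without 1 mouse 6 rose and 0 to 2 fell, with 0 lower without RAG1x3163, RAG1x3168 or WTB6x3167, and with library size alone 6 rose and 5 fell. Slc39a8, which imports zinc and manganese, had 24.1, 26.5 and 22.9 CPM against 9.92, 9.63 and 10.8 CPM and rose by 1.27 (SE 0.14). The sodium phosphate cotransporter Slc34a3 fell by 2.67 (SE 0.44).

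Carriers of vitamins and organic ions fell in 13 of 37 cases and rose in 5, with 3 higher with library size alone and without RAG1x3163 or WTB6x3167. Of this list 48.6% were called, against 20.9% of all genes. Slc23a1, the sodium-coupled carrier of vitamin C, had 1.00, 1.23 and 1.26 CPM in Rag1-/- mice and 7.58, 10.6 and 6.48 CPM in wild type (log2 fold change -2.81, SE 0.23, adjusted p = 1.50e-07). Cubn, the ileal receptor for vitamin B12 bound to intrinsic factor, had 94.9, 166 and 149 CPM against 921, 888 and 792 CPM and fell by 2.67 (SE 0.45). Its partner Amn, which anchors Cubn in the membrane, fell by 0.94 (SE 0.16). Cubn and Amn were chosen after their values were seen, and the call of Cubn ended without RAG1x3163 (adjusted p = 0.0111). Slc5a6, the carrier of biotin and pantothenate, fell by 1.77 (SE 0.15), but it shares exonic bases with another gene. The phosphate and organic anion carrier Slc17a4 fell by 1.37 (SE 0.12) and the choline carrier Slc44a2 by 1.20 (SE 0.10). The nucleoside carrier Slc28a3 had 58, 64.2 and 55.4 CPM against 23.5, 23.3 and 28.7 CPM and was the largest rise of the list (log2 fold change 1.23, SE 0.09, adjusted p = 7.02e-08). The thiamine carrier Slc19a2 rose by 0.67 (SE 0.10). Of 26 ABC exporters of lipids and drugs 9 fell and 0 rose, while 16 fell with library size alone. Abcc6 had 4.51, 4.62 and 5.23 CPM against 13.4, 16.5 and 12.3 CPM, and Abcg8, which returns plant sterols to the lumen, fell by 0.55 (SE 0.10).

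Among called genes, most of glucose breakdown rose and all of gluconeogenesis and glycogen fell. Of 27 glycolysis genes 10 rose, 3 fell and 14 were not called (median 0.22). Of 18 genes of gluconeogenesis and glycogen 6 fell, 0 rose and 12 were not called (median -0.20). The risers were 37% of the first list, against 9.42% of all genes, and the fallers 33.3% of the second, against 11.5%. With library size alone 7 glycolysis genes rose and 4 fell (median 0.05), and 8 of the second list fell and 0 rose. G6pc, which frees glucose from glucose phosphate, had 4.90, 3.39 and 6.74 CPM in Rag1-/- mice and 33.3, 40.5 and 36.6 CPM in wild type (log2 fold change -2.87, SE 0.28, adjusted p = 3.51e-05). Fbp1, a fructose bisphosphatase, had 2.55, 3.29 and 3.76 CPM against 9.11, 10.02 and 7.45 CPM (log2 fold change -1.46, SE 0.15, adjusted p = 2.56e-06), and Slc37a4, which brings glucose phosphate to G6pc, fell by 0.65 (SE 0.08). The groups did not overlap in any of these genes. Pck1, which commits oxaloacetate to glucose, had 4.90, 4.57 and 14.5 CPM against 111, 164 and 47 CPM, a wide spread in both groups (log2 fold change -3.74, SE 0.68, adjusted p = 0.00321). Its call ended without RAG1x3163 (adjusted p = 0.0169), RAG1x3164 (0.0161) or WTB6x3160 (0.0104) and in a fit of the 6 libraries alone (0.0266). Adipocytes express Pck1 too, and adipocyte markers without Pck1 summed to 30.8 to 49.6 CPM in Rag1-/- and 61.1 to 71.3 CPM in wild type mice. Their part in the fall of Pck1 was not tested. Khk, which phosphorylates fructose, fell by 1.03 (SE 0.10). The risers were more modest. Ldha, lactate dehydrogenase, had 1712, 1690.4 and 1698 CPM against 1241, 1163 and 1111 CPM and rose by 0.54 (SE 0.07), Pgk1 by 0.49 and the regulatory enzyme Pfkfb4 by 0.91 (SE 0.11).

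Mitochondrial genes rose by small amounts that rest on the scaling. Of 76 genes of the mitochondrial ribosome 28 rose and 0 fell (median 0.27), while of 77 genes of the cytosolic ribosome 2 rose and 0 fell. Mrps18b had 33.5, 31.5 and 31.9 CPM against 22.2, 23.4 and 22.2 CPM and rose by 0.52 (SE 0.09, adjusted p = 0.000258). Of 79 genes of respiratory complexes I, III and IV and of ATP synthase, 21 rose and 0 fell. Scaled to the pan-epithelial genes, the risers were 14 mitochondrial ribosome and 6 respiratory genes, and with library size alone they were 2 and 0, with 2 respiratory genes lower. Without any 1 mouse, 15 to 19 and 7 to 14 rose, the fewest of both without RAG1x3163. Of 28 genes of the citric acid cycle 9 rose and 2 fell, and with library size alone 0 rose and 5 fell. Without 1 mouse 4 (without WTB6x3160) to 8 rose. The deepest fall of that list was Pdk2, a kinase that shuts pyruvate dehydrogenase, with 19.7, 22.4 and 27.4 CPM against 54.1, 67.4 and 58.6 CPM (log2 fold change -1.37, SE 0.16, adjusted p = 1.96e-05).

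Amino acid metabolism changed at single enzymes. Of 31 genes that break down tyrosine, tryptophan and branched-chain amino acids Tat rose and 7 fell, 11 with library size alone. Ddc, which decarboxylates aromatic amino acids, had 32.6, 40.9 and 37.9 CPM in Rag1-/- mice and 94.3, 95.8 and 79 CPM in wild type (log2 fold change -1.27, SE 0.11, adjusted p = 4.32e-07). Maob fell by 1.23 (SE 0.12) and its paralog Maoa, chosen after its value was seen, by 0.84 (SE 0.14); both oxidize amines. Haao, of the kynurenine pathway, fell by 3.12 (SE 0.40). Glud1, the glutamate dehydrogenase, had 131, 134 and 130.2 CPM against 289.6, 312 and 284 CPM and fell by 1.17 (SE 0.09). Oat, ornithine aminotransferase, fell by 0.69 (SE 0.10), while the polyamine genes Srm (0.67), Amd1 (0.53) and Smox (0.86) rose. Asns, which makes asparagine, had 91.8, 92.3 and 78.9 CPM against 27, 25.4 and 31.6 CPM and rose by 1.65 (SE 0.17). Of 25 genes of the serine, folate and methionine cycle 6 rose and 2 fell, or 4 and 4 with library size alone. Bhmt, which methylates homocysteine with betaine, had 24.2, 18.3 and 18.8 CPM against 6.59, 4.28 and 4.63 CPM and rose by 1.98 (SE 0.22), and its paralog Bhmt2 rose by 2.34 (SE 0.41).

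Genes of fat uptake and of peroxisomal and mitochondrial oxidation fell more often than they rose, with Acadl as the main exception. Of 32 genes of lipid absorption and lipoproteins 15 fell and 1 rose (median -0.36), and 10 to 16 fell without any 1 mouse. Fabp2, the fatty acid carrier of enterocytes, had 2392, 2763 and 2765 CPM in Rag1-/- mice and 5727, 5758 and 4145 CPM in wild type (chosen after its value was seen). Creb3l3, a membrane-bound transcription factor of lipoprotein genes, fell by 0.88 (SE 0.16) and the lysosomal lipase Lipa by 0.55 (SE 0.09). Of 36 genes of fatty acid oxidation and ketogenesis 13 fell and 5 rose, with 3 higher without RAG1x3163 or RAG1x3164 and 2 with library size alone. In both lists 50% were called, against 20.9% of all genes. Hsd17b4, of peroxisomal oxidation, fell by 0.80 (SE 0.08) and Hadh, of mitochondrial oxidation, by 0.67 (SE 0.08). The largest rise was that of Acadl, the long-chain acyl-CoA dehydrogenase, with 277, 295 and 307 CPM against 79.5, 75.1 and 85.1 CPM (log2 fold change 1.87, SE 0.09, adjusted p = 1.46e-09), and no wild type mouse reached the lowest Rag1-/- mouse. Agpat3, an acyltransferase of phospholipid synthesis, fell by 1.81 (SE 0.09) and Acer1, a ceramidase, by 2.23 (SE 0.14), while Sptlc2, which starts sphingolipid synthesis, rose by 0.80 (SE 0.08). Hpgd, which inactivates prostaglandins, had 73.4, 71 and 98.9 CPM against 293, 264 and 253 CPM (log2 fold change -1.73, SE 0.14, adjusted p = 8.87e-07), and Ptges, which makes prostaglandin E, rose by 1.17 (SE 0.23). Ephx2, an epoxide hydrolase of lipid epoxides, fell by 1.36 (SE 0.15). Adipocyte markers were lower beside these lists, at the sums given above, and their part in the lipid genes was not tested.

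Enzymes that modify steroids and foreign compounds fell more often than they rose. Of 36 conjugation genes 16 fell and 1 rose (10 fell without RAG1x3163 or WTB6x3159, and 18 without WTB6x3167), and of 14 glucuronosyltransferases 12 fell and 0 rose. The 8 Ugt1a genes share exons, so their near-equal values are not independent. Ugt2a3 had 5.22, 5.78 and 4.57 CPM in Rag1-/- mice and 39.8, 44.1 and 32 CPM in wild type (log2 fold change -2.90, SE 0.22, adjusted p = 1.24e-06). Gstt1 fell by 0.85 (SE 0.12) and Gstm1 by 0.69 (SE 0.13), both of which attach glutathione, and the sulfotransferase Sult1d1 fell by 0.64 (SE 0.10). Of 47 cytochromes P450 17 fell and 4 rose, and 22 and 2 with library size alone. Cyp2d26 fell by 3.06 (SE 0.38) where its relative Cyp2d9 rose by 4.85 (SE 0.73), both chosen after their values were seen, and Cyp2d12 rose by 3.16 (SE 0.42). Reads of this family can be assigned to more than 1 member. Among steroid genes Akr1c14, which reduces steroid ketones, had 29.4, 24.7 and 30.1 CPM against 124, 110.1 and 108 CPM, Hsd3b3 fell by 1.98 (SE 0.21) and Hsd3b2 by 2.37 (SE 0.35). The ileal bile acid transporter Slc10a2 did not pass (log2 fold change 0.32, SE 0.15, adjusted p = 0.133). Retinoid genes split, with 5 of 32 higher and 6 lower (34.4% called, against 20.9% of all genes), or 4 and 10 with library size alone. Rdh16 had 46.6, 46.6 and 47.1 CPM against 6.43, 5.80 and 6.17 CPM, and Dhrs9, a further retinol dehydrogenase, rose by 2.25 (SE 0.21). Lrat, which stores retinol as ester, fell by 1.34 (SE 0.13), Stra6, the receptor of retinol-binding protein, by 3.66 (SE 0.38) and the retinol dehydrogenase Rdh7, chosen after its value was seen, by 3.0 (SE 0.43).

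Redox and metal genes changed in both directions. Gsr, glutathione reductase, had 489.7, 513 and 503 CPM in Rag1-/- mice and 202, 208 and 218 CPM in wild type (log2 fold change 1.26, SE 0.07, adjusted p = 5.11e-09). It rose with Gpx2 and with Pgd, which supplies NADPH (0.72, SE 0.07). Cat, catalase, had 59.5, 70.8 and 71.1 CPM against 161, 179 and 149 CPM (log2 fold change -1.28, SE 0.10, adjusted p = 9.14e-08), and its gene lies close to Rag1. Gclm, of glutathione synthesis, fell by 0.93 (SE 0.10). In all, 8 of 34 glutathione and antioxidant genes rose and 5 fell. The balance turned with library size alone, to 5 higher and 7 lower, and without WTB6x3167, to 4 and 5. Of 37 genes of heme, iron and copper 7 rose and 2 fell (24.3% called, against 20.9% of all genes). With library size alone 6 rose and 4 fell. Slc40a1, the iron exporter ferroportin, had 297, 311 and 271 CPM against 99.6, 101 and 123 CPM (log2 fold change 1.44, SE 0.12, adjusted p = 4.08e-07). The metal reductases Steap1 and Steap2 rose by 2.53 (SE 0.15) and 1.33 (SE 0.12), and Alas1, the first enzyme of heme synthesis, by 0.59 (SE 0.08). Slc11a2, the apical iron importer, fell by 0.31 (SE 0.08); its call ended without RAG1x3163 (adjusted p = 0.0158), RAG1x3164 (0.0119), RAG1x3168 (0.0348), WTB6x3159 (0.0209) or WTB6x3167 (0.0281) and with DESeq2 size factors (0.0107).

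Several transcription factors that define the intestinal epithelium were not called. Hnf4a (log2 fold change 0.18, SE 0.07, adjusted p = 0.0750), Cdx2 (log2 fold change -0.03, SE 0.13, adjusted p = 0.894) and Gata4 (log2 fold change -0.35, SE 0.10, adjusted p = 0.0125) did not pass. Gata4, which marks the proximal intestine, lay near the threshold: it was called lower with library size alone (adjusted p = 0.000535), upper quartile scaling (0.00602), the pan-epithelial scaling (0.00989), DESeq2 (0.00927) and without WTB6x3167 (0.00675). Of 40 enterocyte factors 9 rose and 6 fell. The balance turned with library size alone, to 5 higher and 10 lower, and without 1 mouse 6 to 7 rose and 3 to 6 fell, with 3 lower without RAG1x3163. Tfcp2l1, a factor of the grainyhead family, had 99.6, 129 and 124 CPM in Rag1-/- mice and 27, 23.9 and 21.4 CPM in wild type (log2 fold change 2.29, SE 0.17, adjusted p = 1.05e-06). The ETS factors Elf3 and Ehf, both of epithelia, rose by 0.87 (SE 0.10) and 0.68 (SE 0.09), with 583, 658 and 568 CPM against 329, 365 and 293 CPM for Elf3. Ehf lies within 5 Mb of Rag1. Isx, which restrains carotenoid uptake, rose by 0.54 (SE 0.07). Sox13 had 97.3, 97.1 and 100.4 CPM against 39.8, 40.5 and 34.1 CPM and was the riser among 13 Sox genes. The homeobox gene Barx2 fell by 2.18 (SE 0.22) and the forkhead gene Foxq1 by 2.21 (SE 0.31). Satb1 (-1.86), Ets1 (-1.82) and Pax5 (-5.98) fell as well, and lymphocytes express all 3. Among secretory factors Xbp1, which expands the secretory pathway, had 440.4, 506 and 446 CPM against 253, 276 and 311 CPM and rose by 0.73 (SE 0.08). Zinc finger genes of the Zfp series fell in 23 of 345 cases and rose in 3, under the background in both directions. With library size alone 55 fell, and without 1 mouse 9 (without WTB6x3159) to 18 (without WTB6x3160).

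**Figure D4:**
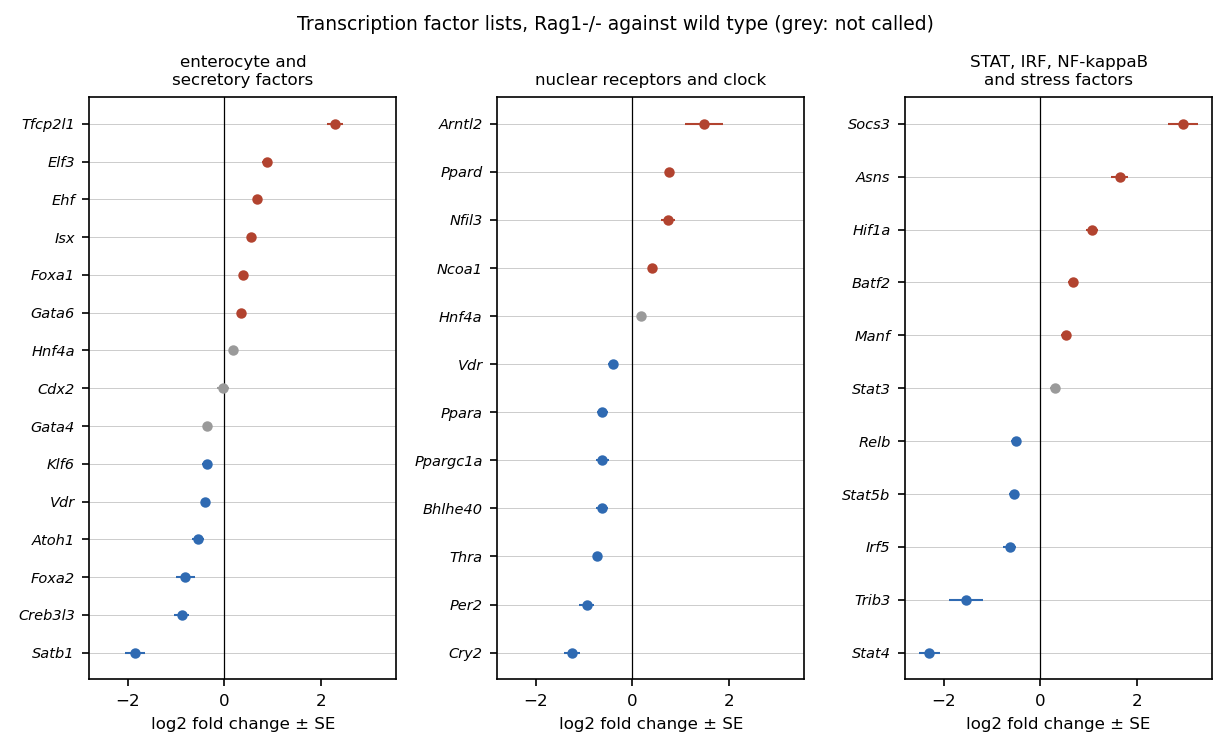
Log2 fold change (Rag1-/- over wild type) with its standard error for the named genes of the transcription factor lists that are on no immune list, in 3 panels; red points were called higher, blue points lower and grey points not called. Tfcp2l1 and Socs3 lie furthest to the right, Satb1 and Stat4 furthest to the left, and Hnf4a, Cdx2, Gata4 and Stat3 are grey.

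Nuclear receptors, which bind lipids and hormones, fell in 8 of 50 cases and rose in 3. The share called, 22%, was near the 20.9% of all genes. The count of fallers moved to 19 with library size alone and ranged from 3 (without RAG1x3163 or RAG1x3164) to 10 (without RAG1x3168). Ppard, a fatty acid receptor, had 186, 212 and 199.6 CPM in Rag1-/- mice and 118, 123 and 112 CPM in wild type (log2 fold change 0.76, SE 0.09, adjusted p = 8.66e-06), while its paralog Ppara had 28.6, 29.2 and 27.4 CPM against 44.2, 50.04 and 36.7 CPM (log2 fold change -0.62, SE 0.11, adjusted p = 0.000443). The receptors of this family thus moved apart with no overlap between groups in either gene. Thra, a thyroid hormone receptor, fell by 0.73 (SE 0.09). Vdr, the vitamin D receptor, fell by 0.41 (SE 0.08); its call ended without RAG1x3163 (adjusted p = 0.0119).

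Of 38 STAT, IRF and NF-kappaB genes 3 rose and 6 fell (23.7% called, near the 20.9% of all genes). Without RAG1x3168 6 rose and 4 fell, and with library size alone 2 rose and 10 fell. Apart from Socs3, Batf2 rose by 0.68 (SE 0.10). Stat3, the factor that Socs3 restrains, did not pass (log2 fold change 0.30, SE 0.09, adjusted p = 0.0164), but it did in the 6 libraries alone (adjusted p = 0.00786) and in DESeq2 (0.00717). Stat4 and Irf4, which lymphocytes express, fell by 2.30 and 4.48, and Stat5b fell by 0.54 (SE 0.10). Of 38 stress genes 10 rose and 1 fell (median 0.18), and 5 rose and 5 fell with library size alone. Without WTB6x3160 5 rose, and without RAG1x3163 or WTB6x3159 6 rose. Hif1a, the oxygen-sensitive factor, had 123, 151 and 102 CPM against 65.9, 51.6 and 61.3 CPM (log2 fold change 1.07, SE 0.13, adjusted p = 2.33e-05). On a list of 20 clock and fat uptake factors 2 rose and 5 fell, with 3 lower without RAG1x3164 or WTB6x3160. They include Nfil3, a repressor of the clock, at 0.74 (SE 0.14) and the clock gene Per2 at -0.95 (SE 0.15).

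The DNA around Rag1 was examined because a knockout made in embryonic stem cells can keep flanking sequence of the donor strain. Of 39 genes tested that start within 5 Mb of Rag1, 13 (33.3%) were called, 9 higher and 4 lower, against 20.9% of all genes. Within 20 Mb it was 46 of 235 (19.6%). Traf6, a signalling adaptor next to Rag1, had 56.4, 72.3 and 57.9 CPM in Rag1-/- mice and 39.6, 40.4 and 41.7 CPM in wild type (log2 fold change 0.62, SE 0.09, adjusted p = 8.49e-05). Ccdc73, 3.25 Mb away, had 251 reads in Rag1-/- mice and 0 in wild type, at least 85.4-fold higher against that same floor, although it shares exonic bases with another gene. Prrg4, at 3.19 Mb, had 7.84, 11.6 and 7.21 CPM against 0.562, 0.771 and 1.32 CPM. Cd59a, a complement inhibitor, fell by 1.34 (SE 0.13) where its neighbour Cd59b rose by 2.71 (SE 0.50). Cat, at 1.82 Mb, and Ehf, at 1.62 Mb, are among the 13, all named here for their position, with Pdhx, Trim44, Nat10, Hipk3, Rcn1 and B230118H07Rik. For these genes the Rag1 genotype and any DNA linked to it cannot be told apart by comparing Rag1-/- with wild type mice alone. The Tcra-/- mice were not compared here.

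**Figure D5:**
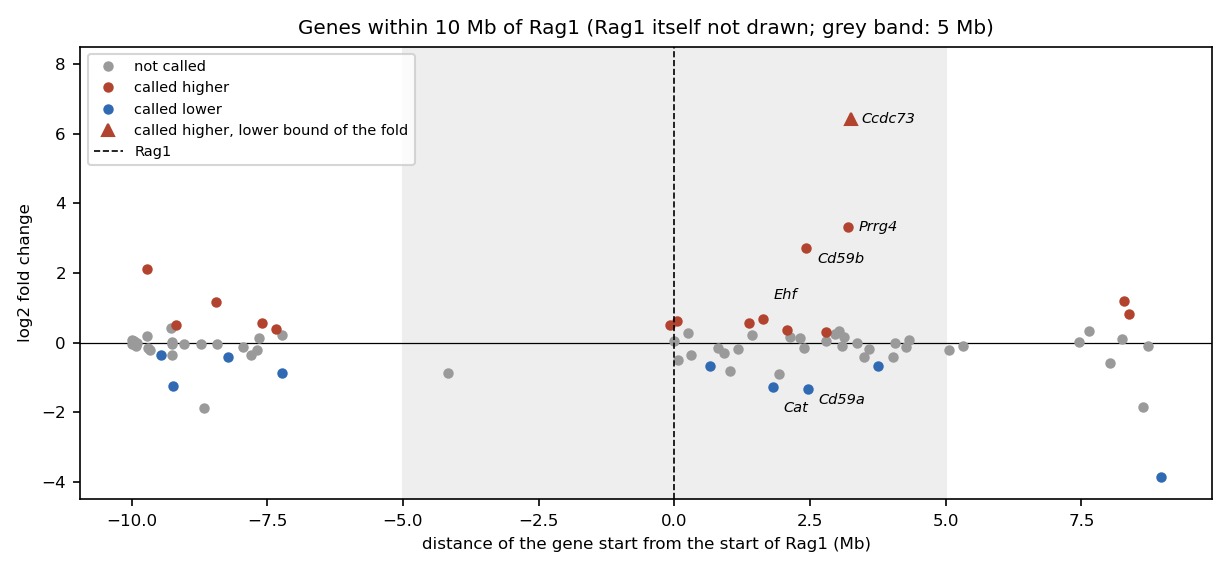
Log2 fold change of genes tested within 10 Mb of Rag1, by distance of the gene start from that of Rag1; red points were called higher, blue lower and grey not called, and the triangle is the lower bound for Ccdc73, which had 0 reads in wild type mice. Prrg4, Cd59b and Ccdc73 stand above the rest within the grey band of 5 Mb, and Cat and Cd59a lie below -1.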

How the data were processed

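The data are raw counts of reads per gene in 12 libraries of mouse terminal ileum, 1 per mouse, with the gene length in bases, as deposited by the authors in 1 table. RNA came from Trizol extraction and a stranded Illumina mRNA kit, per the labels' protocols. Per the submitters' processing notes, TopHat2 2.0.11, Bowtie2 2.2.2.0, featureCounts of Subread 1.4.5-p1, DESeq2 1.12.3 and the build mm9 were used. Not given in the sources used here are the annotation, the strand setting and the handling of reads that map to several places. Members and gene lists were chosen with earlier results of these data known.

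Of 23284 genes, 15866 passed edgeR's filterByExpr over all 12 libraries, and 15410 did in the 6 libraries alone. Counts were scaled by TMM and fitted with edgeR 4.0.16 (R 4.3.3) by the robust quasi-likelihood test, with 1 mean per group for the 4 groups and the contrast of Rag1-/- minus wild type. P-values were adjusted by Benjamini-Hochberg over all genes tested, and called genes have an adjusted p under 0.01, the rate the study states. CPM are counts scaled to the TMM library size, and a log2 fold change is the fitted one. SE is the log2 fold change divided by the square root of F. Genes were described in 57 lists and 47 families, by counts and medians. Named genes were the 15 largest rises and 15 largest falls outside the immune lists whose log2 CPM averaged above 1 and whose groups did not overlap, up to 4 called members of each list in its main direction and 2 in the other, up to 3 of each family, and a few fixed genes; any further gene is marked as chosen after its value was seen. A few genes are not reported here. Alternatives were other scalings, filters and sample sets, DESeq2 1.42.0 and leaving out each mouse. The method was tested on simulated data.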

Additional observations from a re-analysis of the deposited data

How the results depend on the processing

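The count of called genes was 3314, and 3061 to 4019 under the other scalings, filters, tests and sample sets, while it was 2434 to 2809 without any 1 of the 6 mice, with 1079 to 1200 higher and 1355 to 1609 lower. Outside the immune lists it was 3178, and 2312 to 2679 without 1 mouse. The split of directions was the part that moved by more than 1.5 times: with library size alone 713 genes were called higher and 3218 lower, in place of 1494 and 1820. DESeq2 called 1940 higher and 2079 lower. Of 387 named genes that were called, 302 were called under every setting fitted, 85 lost the call under 1 or more, and 0 changed direction. No paired analysis was possible because the Rag1-/- and wild type mice share no replicate numbers. With 3 mice a group, a gene that missed the threshold is not shown to be unchanged.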

Other observations

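By chromosome, the share of tested genes called ran from 16.2% on chromosome 8 to 27.4% (261 of 953) on chromosome 1.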
